A study of Mus musculus with 6 samples.

Results

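Group 2 innate lymphoid cells (ILC2s) of the mouse lung were taken from a single-cell RNA sequencing data set of whole lung by their transcripts. A cell was a member when it had at least 1 UMI (unique molecular identifier, 1 counted transcript) of Gata3, UMIs of at least 2 of the 5 genes Il1rl1, Rora, Il7r, Icos and Areg, and no UMI of Cd3d, Cd3e, Cd3g, Ncr1, Eomes, Cd79a, Cdh5, Col1a2 or Marco. Cells entered with a minimum of 500 UMIs and 300 detected genes and a mitochondrial share below 20%, and of the 76800 that did, 327 were members. All animals were male C57BL/6J mice of 12 weeks, and lungs were collected at day 3. Control mice received PBS, a second group received lipopolysaccharide (LPS, a bacterial endotoxin) at 1 mg/kg, and the third received LPS at 1 mg/kg with 7 rounds of what the labels call SLC-Gq activation. SLC is the subcoeruleus nucleus, a brainstem cell group, and the title places the question in its effect on lung immunity through sympathetic nerves. Each group had 2 libraries, numbered as replicates 1 and 2 and each described as lung of a mouse, and a group with SLC activation alone was not analysed here. The labels do not say how the nucleus was activated, or whether mice were pooled, so p-values measure the spread between these libraries. Lungs were digested with enzymes and depleted of dead cells before capture in BD Rhapsody microwells.

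ILC2s are tissue-resident lymphocytes without a rearranged antigen receptor. They are held in the lung mainly at airway and vessel cuffs, and they respond to the epithelial alarmins IL-33, IL-25 and TSLP through the receptors encoded by Il1rl1, Il17rb and Crlf2. The transcription factor GATA3 drives their program, and their products include IL-5, which feeds eosinophils, IL-13, which acts on airway epithelium, GM-CSF (Csf2), and the repair factor amphiregulin (Areg). Neuropeptides and glucocorticoids are known to adjust their output.

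The libraries held 11608 to 13710 kept cells and 31589233 to 48641470 UMIs each. The 15 pairs of libraries shared 0 to 6 cell labels. Median mitochondrial UMIs were 7.99 to 8.82% over all kept cells of the control libraries and 1.23 to 2.86% in the 4 treated libraries. Members numbered 118 and 107 in the control libraries, 26 and 34 after LPS, and 11 and 31 after SLC activation with LPS. Their median depth was 1625 and 1336 UMIs in the control libraries, 1922 and 1972 after LPS, and 1766 and 1234 after SLC activation with LPS. Their median mitochondrial share was 9.15 and 8.34% in control, 6.61 and 5.02% after LPS, and 7.76 and 5.22% after SLC activation with LPS.

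The members carried an ILC2 profile beyond the genes that chose them. For all members together, levels are given as CPM, the UMIs of a gene per 1000000 UMIs of the summed member cells. Leaving out the gating genes, and among genes of at least 50 CPM with a UMI in at least 20% of members, the highest ratio over all other kept cells belonged to Calca, which encodes the neuropeptide CGRP. Calca stood at 962 CPM in members, 6.04 CPM in the other cells and 32.9 CPM in T cells. Csf2 followed with 567 CPM against 3.57 CPM, a ratio of 159. Then came Dach2, a nuclear cofactor (130.2-fold), Rab27b, a GTPase of secretory granules (49.4-fold), Hs3st1, a heparan sulphate sulphotransferase (46.2-fold), and Il2ra, the alpha chain of the IL-2 receptor (36.4-fold). Tespa1, Rnf128, St6galnac3, Pard3, Inpp4b and Cxcr6 completed the first 12, with ratios from 17.9 to 33.9. Hs3st1 and Csf2 separated members from T cells by 135-fold and 123-fold, whereas Cxcr6, a chemokine receptor of resident lymphocytes, was at 439 CPM in members and 454 CPM in T cells. Because the members were selected on their expression, these ratios describe them and were not tested.

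Marker lists of other cells showed where the gate was not clean. Of 7 basophil and mast cell markers, Mcpt8, Ms4a2, Fcer1a and Cd200r3 had no UMI in any member, and the summed level of the list ran from 46.7 to 487 CPM over the libraries. An alpha-beta T cell transcript (1 or more of 7 such genes, among them Trac, Cd4 and Cd28) was present in 18 of 225 control members and 29 of 102 treated members. Trbc2, a T cell receptor beta constant gene left out of those 7, had a UMI in 4 of the 27 members rich in myeloid genes described next and in 112 of the other 300. Trac had one in 22 of those 300. What Trbc2 transcripts mean for the identity of these cells was not tested. Gzma, a granzyme of natural killer and cytotoxic T cells, had 13 and 8 UMIs in control, 0 and 93 after LPS, and 0 and 0 after SLC activation with LPS, so it stood out in LPS library 2. Airway epithelial transcripts such as Scgb1a1, which a lymphocyte should lack, summed to 1480.4 and 1484 CPM in control, 445 and 51.8 after LPS, and 214 and 56.4 after SLC activation with LPS.

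The clearest departure was myeloid. A list of 18 myeloid genes, among them Lyz2, Cd14, Csf1r, Itgam and Ctss, summed to 5884 and 2841 CPM in control, 45949.9 and 11657 after LPS, and 37691 and 25129 after SLC activation with LPS in members. This signal sat in few, large cells. Members with UMIs of at least 8 of the 18 genes numbered 6 and 1 in control, 6 and 6 after LPS, and 3 and 5 after SLC activation with LPS, and the largest held 24734 UMIs. They made up 14.4 and 1.48% of member UMIs in control, 63.5 and 40.8% after LPS, and 65.7 and 38.9% after SLC activation with LPS. Of these 27 cells, 19 had a single Gata3 UMI and 8 had a UMI of Il1rl1, the IL-33 receptor. Of the other 300 members, 87 had a single Gata3 UMI and 213 had a UMI of Il1rl1. Their median depth was 4950 UMIs against 1472. As a set, these 27 cells go against the name ILC2, and they are called myeloid-rich members below. The set was mixed, and some carried ILC2 products as well. An Il5 UMI was present in 8 of them (29.6%) and in 53 of the other 300 (17.7%), at the unlike depths given above. Leaving them out thus also took away Il5 signal, from 659 UMIs in all LPS members to 431. The limit of 8 genes was set after the values were seen, with 9 members at 7 genes and 5 at 8, so tests between groups are given with and without them, and levels say which cells they cover.

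**Figure D1:**
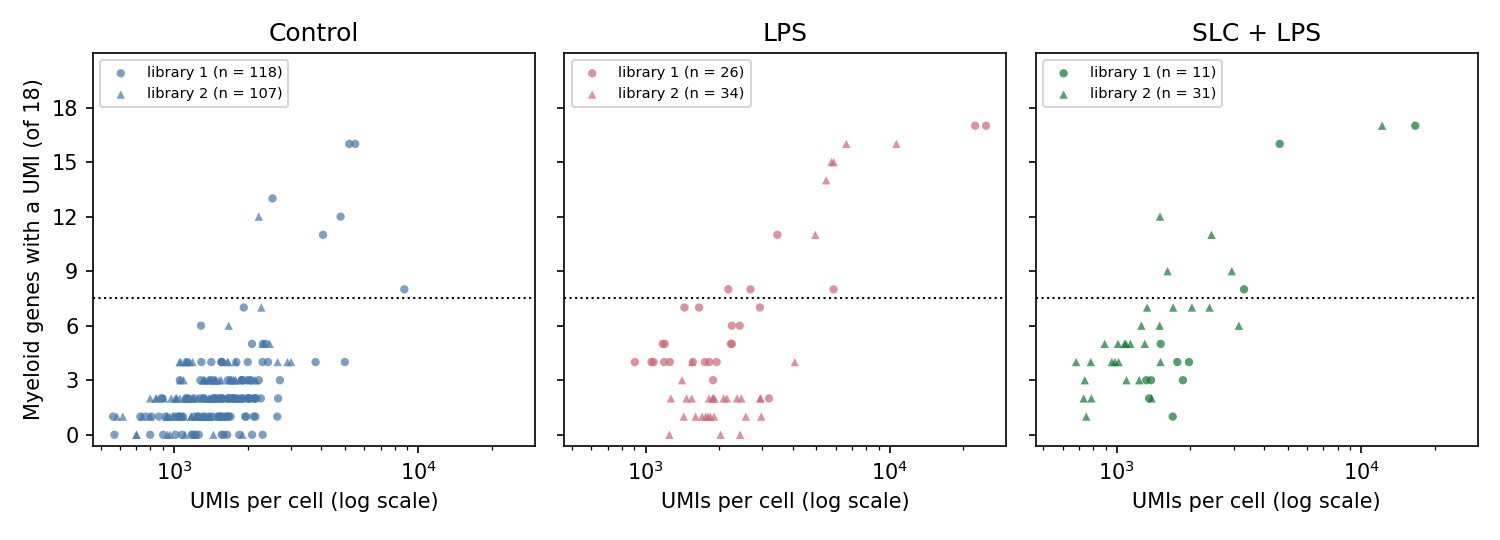
Each point is 1 member cell, with its UMIs (log scale) against the number of 18 myeloid genes that had a UMI in it, in 1 panel per group and 1 symbol per library. The dotted line separates the 27 cells with at least 8 of the genes, 7 of them control and 20 treated, and the cell with most UMIs, 24734, is above the line in the LPS panel.

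Members were a smaller share of the lung cell suspension after LPS, with or without SLC activation. They were 0.931 and 0.86% of kept cells in control, 0.19 and 0.293% after LPS, and 0.0819 and 0.24% after SLC activation with LPS. The group means were 0.895% ± 0.0504 (SD, n = 2), 0.241% ± 0.073 and 0.161% ± 0.111, and neither treated group overlapped the control. On the log2 scale the fall was −1.89 (SE 0.66, adjusted p = 0.0362) after LPS and −2.47 (SE 0.68, adjusted p = 0.00646) after SLC activation with LPS, by edgeR's quasi-likelihood test over 13 cell classes. Of those classes 38.5% were called after LPS, 30.8% lower and 7.69% higher, and after SLC activation with LPS 61.5% were called lower and 7.69% higher, so a fall was common in this denominator. Neutrophils were called higher in the same test, by 1.59 (SE 0.57, adjusted p = 0.0362) and 1.85 (SE 0.57, adjusted p = 0.0123). Between the treated groups the difference was −0.58 (SE 0.67, adjusted p = 0.867). With scaling factors over classes (TMM) the falls were −0.56 (adjusted p = 0.503) and −0.81 (adjusted p = 0.474) and were no longer called. The LPS call also ended without control library 1 (−1.83, adjusted p = 0.197), control library 2 (−1.95, adjusted p = 0.152) or LPS library 1 (−1.61, adjusted p = 0.157), and that of SLC activation with LPS without control library 1 (−2.41, adjusted p = 0.0533).

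Against other lymphocytes, which leaves neutrophils out, the fall after LPS was smaller and still called. Members made up 3.9 and 4.56% of ILC2s, T, NK and B cells in control, 2.28 and 1.89% after LPS, and 2.3 and 3.32% after SLC activation with LPS. All treated libraries lay below both control libraries. The LPS difference was −1.03 (SE 0.28, adjusted p = 0.0126), and ILC2s were the called class of 4 (25% called). After SLC activation with LPS it was −0.54 (SE 0.30, adjusted p = 0.133), and between the treated groups 0.50 (SE 0.33, adjusted p = 0.18). Without the myeloid-rich members the difference after SLC activation with LPS was −0.80 (adjusted p = 0.0459), and with Il1rl1 also required it was −1.02 (adjusted p = 0.012). The LPS call ended without control library 1 (−1.14, adjusted p = 0.119), control library 2 (−0.92, adjusted p = 0.264), or either library of SLC activation with LPS (−1.03, adjusted p = 0.0681 for both). A lower share in a suspension cannot be told apart from a lower yield of these cells at digestion.

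**Figure D2:**
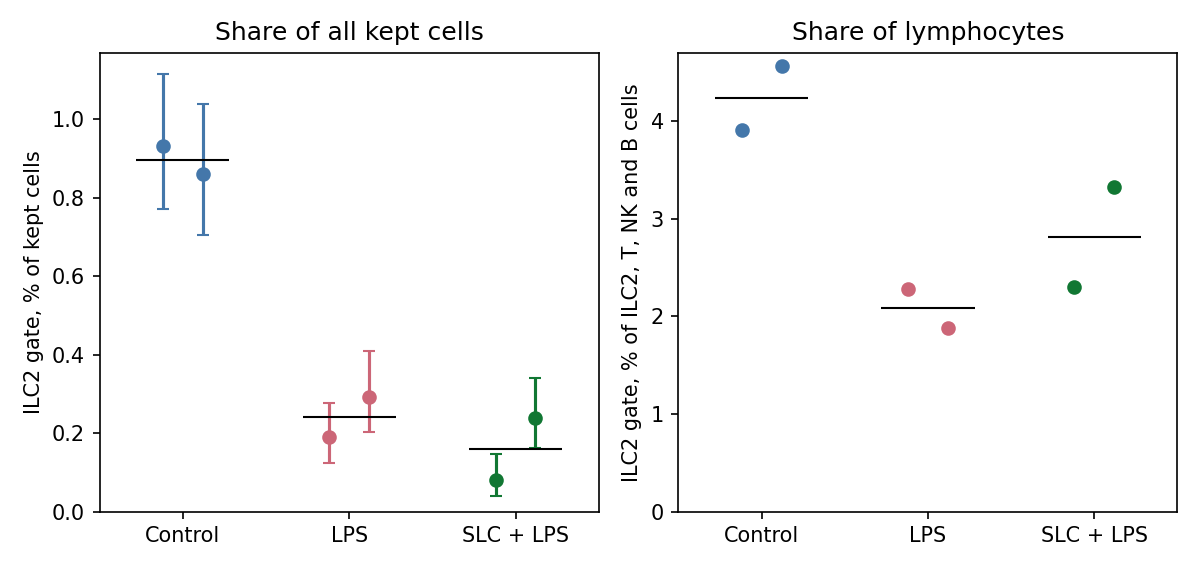
Share of members per library (points) and group mean (lines), in percent of all kept cells with exact 95% binomial intervals (left, counting error only) and in percent of ILC2s, T, NK and B cells (right). Both control libraries lie above all 4 treated libraries in each panel.

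The gating genes themselves are shown as levels only, since the rule used them. With the myeloid-rich members left out, Gata3 stood at 2335 and 2226 CPM in the control libraries, 2496 and 2835 after LPS, and 1634 and 1785 after SLC activation with LPS. Il1rl1 stood at 1288 and 1398 CPM in control, 1389.8 and 1522 after LPS, and 1323 and 923 after SLC activation with LPS. Rora, a nuclear receptor required for ILC2 development, stood at 3023 and 2884 CPM in control, 3092 and 3359.7 after LPS, and 2412 and 2154 after SLC activation with LPS. Both LPS libraries lay slightly above the control pair for Gata3 and Rora and both SLC libraries lay below it, while the Il1rl1 ranges of control and LPS overlapped. Icos, a costimulatory receptor, stood at 715 and 739.7 CPM in control, 1389.8 and 1539.9 after LPS, and 934 and 1354 after SLC activation with LPS, lowest in the control pair. Il7r, the IL-7 receptor, stood at 1015 and 1160.4 CPM in control, 993 and 1365 after LPS, and 311 and 1262 after SLC activation with LPS, and its low value in the first SLC library rests on 4 UMIs. Areg stood at 1326 and 1303 CPM in control, 1248 and 1329.9 after LPS, and 622 and 523 after SLC activation with LPS, so the pair with SLC activation lay below the other 4 libraries. The first SLC library held 8 such cells and 12854 UMIs, so its Areg level also rests on few UMIs. At the edge of the gate, over all cells, the 84 members with exactly 2 of the 5 genes had 123 CPM of Calca and 56.7 CPM of Dach2, and the 72 cells just outside, with 1 of the 5, had 94.7 and 71 CPM. Other ungated genes were higher inside the gate than just outside it. Csf2 stood at 369 and 5.92 CPM, Il2ra at 175 and 53.3, Hs3st1 at 99.3 and 23.7, and Il5 at 52 and 29.6. The airway transcript Scgb1a1 (988 and 657 CPM) and Trbc2 (288 and 207 CPM) were also higher inside, so the contrast was not limited to ILC2 products. Members with all 5 genes had 1991 CPM of Calca and 224 CPM of Dach2.

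**Figure D3:**
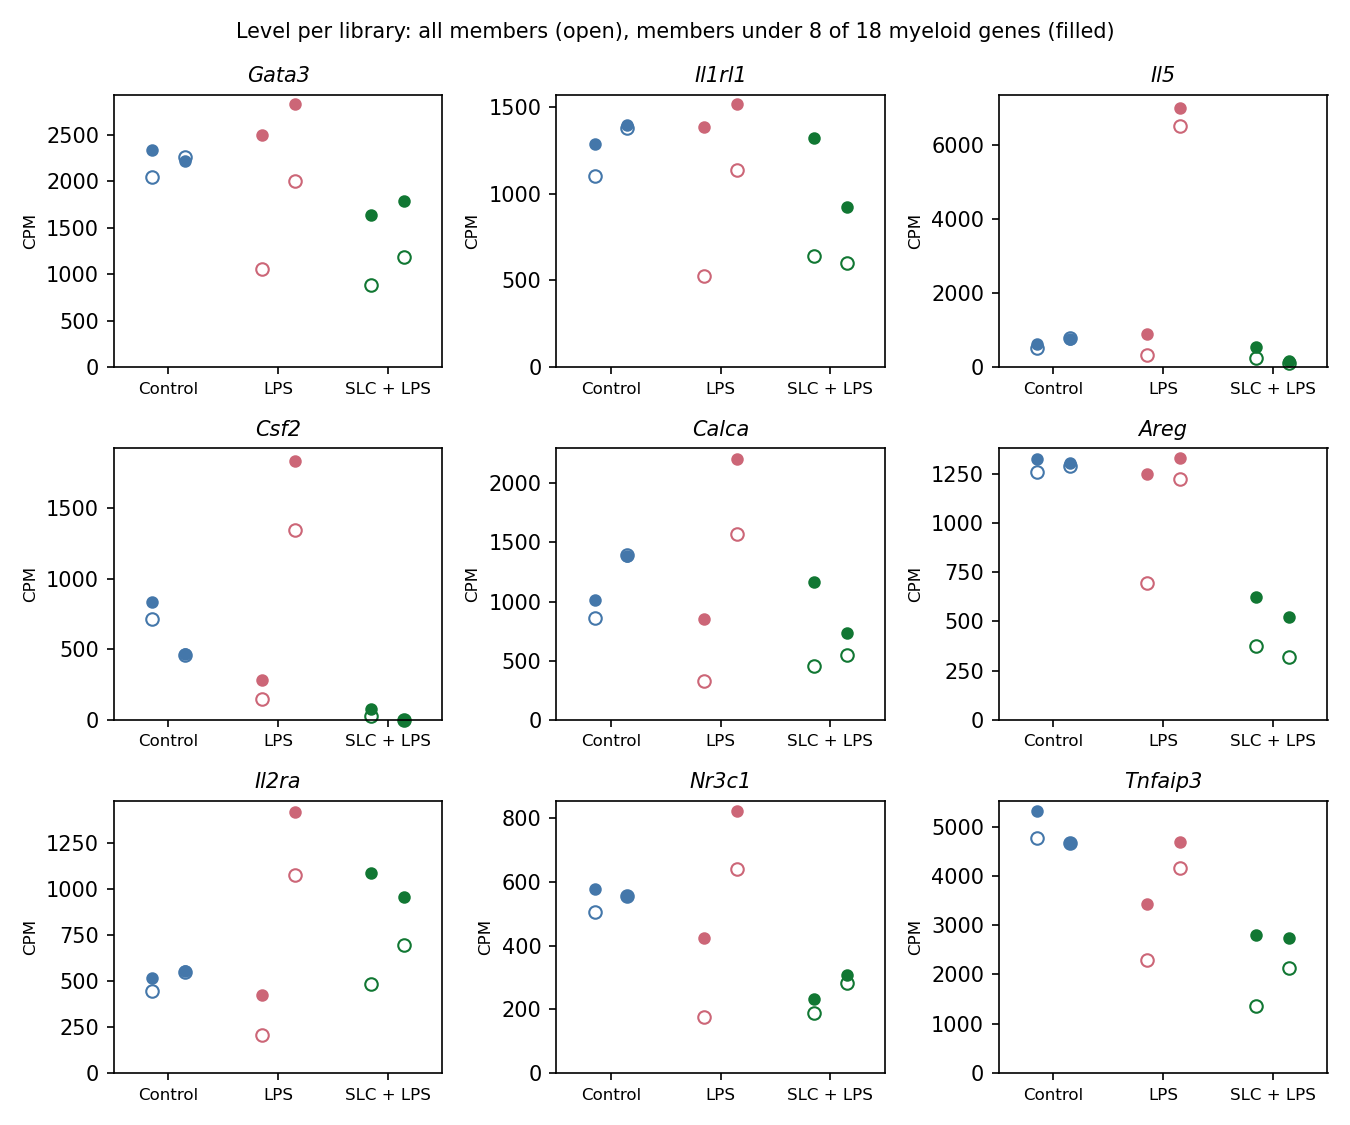
Level per library in CPM (linear axes from 0) of 9 genes in all members (open circles) and without the myeloid-rich members (filled circles), by group. Among the filled circles, Il5 (6999 CPM) and Csf2 (1837 CPM) are highest in library 2 of the LPS group and lowest in the SLC libraries, and Gata3 runs from 1634 to 2835 CPM.

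Effector cytokine genes were uneven between libraries and between cells. Il5, Il13 and Csf2 lie in 1 cytokine cluster on chromosome 11, and their promoters are shown because the results below turn on these neighbouring genes. The 250 bases before each gene's start are printed 5′ to 3′ on the gene's strand, from RefSeq in build GRCm38.p6 (the submitters' processing notes name GRCm39), with matches to the GATA-type motifs AGATAA and TGATAA (either strand) in capitals. Il5 lies on the plus strand at chr11:53720544-53720793, Il13 on the minus strand at chr11:53634703-53634952, and Csf2 on the minus strand at chr11:54249900-54250149.
Il5: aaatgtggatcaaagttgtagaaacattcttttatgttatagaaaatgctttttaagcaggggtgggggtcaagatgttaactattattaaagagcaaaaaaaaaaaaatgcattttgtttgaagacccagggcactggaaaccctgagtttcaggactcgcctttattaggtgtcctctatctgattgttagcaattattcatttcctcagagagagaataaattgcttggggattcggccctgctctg
Il13: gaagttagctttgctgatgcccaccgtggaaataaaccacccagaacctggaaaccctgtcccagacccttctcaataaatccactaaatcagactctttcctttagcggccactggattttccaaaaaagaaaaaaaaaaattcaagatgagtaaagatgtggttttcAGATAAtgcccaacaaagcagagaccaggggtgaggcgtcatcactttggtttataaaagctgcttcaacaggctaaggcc
Csf2: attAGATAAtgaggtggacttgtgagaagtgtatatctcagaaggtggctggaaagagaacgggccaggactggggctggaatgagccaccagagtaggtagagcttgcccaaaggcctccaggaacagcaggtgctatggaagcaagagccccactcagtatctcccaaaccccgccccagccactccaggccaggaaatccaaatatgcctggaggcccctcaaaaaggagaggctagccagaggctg
For AGATAA and TGATAA, the Il13 and Csf2 windows each held 1 match and the Il5 window none, and 16.6% of 32851 promoter windows of this length held at least 1. Forms ending in G, such as AGATAG, were not searched. The printed Il5 window holds ctatct, which is AGATAG on the other strand. A match is a run of letters and not a measured binding site.

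Il5 UMIs were found in 61 of the 327 members, at 19 and 22 cells in control, 2 and 14 after LPS, and 2 and 2 after SLC activation with LPS. In B cells of the control libraries, which should lack it, Il5 had no UMI in 2463 cells, which allows up to 0.122% of cells with a UMI (median depth 1090 UMIs, against 1467 in control members). It had none in 1001 B cells after LPS, and 1 of 398 after SLC activation with LPS had a UMI, where 4 of 42 members did. The Il5 level outside the myeloid-rich members was 611 and 746 CPM in the control libraries, 879 and 6999 after LPS, and 545 and 154 after SLC activation with LPS. LPS library 2 stood far above the other 5, and its LPS partner lay close to the control pair in level but not in positive cells. The level of LPS library 1 came from 31 UMIs of 1 cell among 20, and that of SLC library 1 from 7 UMIs of 1 cell. In the control libraries 19 and 21 such cells had an Il5 UMI. The change after LPS was 2.36 (SE 0.73) with an unadjusted p of 0.00691 and an adjusted p of 0.296, and that between the treated groups was −4.20 (SE 0.91) with an adjusted p of 0.248 (edgeR quasi-likelihood test), so neither passed. In all members the 2 values were 2.24 (SE 1.23) and −4.57 (SE 1.47), with adjusted p of 0.49 and 0.953. The transcript was concentrated in few cells. In the control libraries the 10 cells with most Il5 held 63.5% of its UMIs, and in the treated libraries 98.9%, there out of 13 positive cells.

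Il5-positive cells carried more of some other ILC2 products. Leaving out the myeloid-rich members, Calca had a UMI in 33 of 40 Il5-positive control members (82.5%) and in 61 of 178 Il5-negative ones (34.3%). In the treated libraries the counts were 11 of 13 (84.6%) and 25 of 69 (36.2%). Il2ra was present in 75% and 42.7% of the same control cells, and Il13 in 12.5% and 2.25%. Klrg1, an inhibitory receptor of mature ILC2s, was present in 27.5% and 12.9%. Csf2 was present in 27.5% and 24.2% of the control cells, and in 53.8% and 14.5% of the treated ones. Of the 13 Il5-positive treated cells 9 came from LPS library 2, where Csf2 was present in 6 of 9 Il5-positive and 6 of 19 Il5-negative cells, so the pooled treated shares also reflect that library. Median depths were 1581 UMIs in Il5-positive and 1397 in Il5-negative control members. Cells of 1 library are not replicates, so these shares are a description, with exact binomial intervals for counting error only in the plot of Il5-positive cells.

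**Figure D4:**
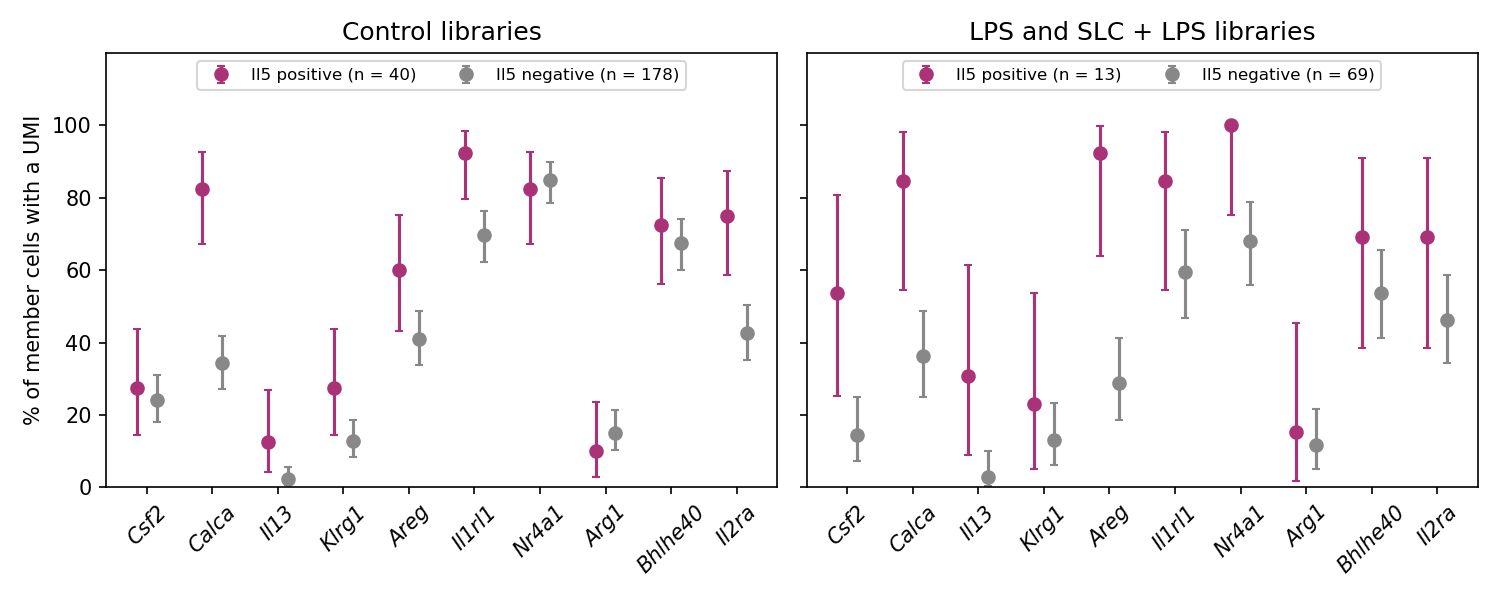
Share of members (without the myeloid-rich ones) with a UMI of each named gene among Il5-positive and Il5-negative cells, with exact 95% binomial intervals, in control libraries (left) and treated libraries (right). Calca stands at 82.5% against 34.3% in control and 84.6% against 36.2% in treated cells.

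Csf2 UMIs nearly vanished from members after SLC activation with LPS. All members had 153 and 69 Csf2 UMIs in the control libraries, 14 and 130 after LPS, and 1 and 0 after SLC activation with LPS. The number of positive cells was 31 and 23 in control, 7 and 15 after LPS, and 1 and 0 after SLC activation with LPS. Per UMI, the pooled control level was 55.3 times that after SLC activation with LPS (exact 95% interval 9.82 to 2194, counting error only), and 30.4 times (5.41 to 1208) without the myeloid-rich members. The edgeR test gave an adjusted p of 0.108 against control and 0.934 against LPS in all members, and of 0.107 and 0.248 without the myeloid-rich ones, so it did not pass. When each member was thinned to 500 UMIs, so that every cell weighed the same, Csf2 passed against control (adjusted p = 0.0104), with 68 UMIs in control members and none in the SLC group, at least 4.23-fold higher in control taking 3 UMIs in the SLC group as the floor. The 2 LPS libraries lay on either side of the control pair. Without LPS library 2, Csf2 after LPS was −2.10 against control (adjusted p = 0.0271), where with both it was 0.19 (SE 0.83). Without LPS library 1 or 2, Csf2 after SLC activation with LPS passed against control (adjusted p = 3.42e-04 and 9.40e-06), as it did by DESeq2 (adjusted p = 0.0184).

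Ccl3, a chemokine that myeloid cells also make, stood at 252 and 227 CPM in control, 2631 and 860.0 after LPS, and 1736 and 1768 after SLC activation with LPS in all members, above the control pair in every treated library (2.76, SE 0.55, adjusted p = 0.0664, and 2.53, adjusted p = 0.0753). Outside the myeloid-rich members it stood at 120.05 and 204 CPM in control, 1106 and 157 after LPS, and 1323 and 1077 after SLC activation with LPS (1.57, SE 0.65, adjusted p = 0.442, and 2.25, adjusted p = 0.141). Ccl5, a chemokine of T and natural killer cells, stood at 243 and 267 CPM in control, 155 and 1451 after LPS, and 0 and 282 after SLC activation with LPS in all members, highest in LPS library 2 where Gzma also stood out. Furin, a protein convertase, stood at 649 and 776 CPM in control, 704 and 642 after LPS, and 401 and 639.5 after SLC activation with LPS.

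Calca stood at 1009 and 1384 CPM in the control libraries, 851 and 2205 after LPS, and 1167 and 739 after SLC activation with LPS without the myeloid-rich members, and all 3 group ranges overlapped or adjoined (0.15, SE 0.49, after LPS, adjusted p = 0.951). Il13 was found in 16 members and Il4 in 4, and Il9 in none of 327, which allows a share of up to 0.917%. Arg1, an arginine-degrading enzyme of ILC2s and of macrophages, showed how the myeloid-rich cells enter a level. In all members it had 19 and 18 UMIs in control, 5 and 10 after LPS, and 31 and 26 after SLC activation with LPS and differed by 2.85 (SE 0.54) between the treated groups (adjusted p = 0.369). Without the myeloid-rich members the UMIs were 19 and 18 in control, 5 and 2 after LPS, and 4 and 2 after SLC activation with LPS. Tnfsf11, the cytokine RANKL, stood at 180.1 and 122 CPM in control, 56.7 and 105 after LPS, and 0 and 30.8 after SLC activation with LPS without them. Of the 19 effector genes with a row in the files, 11 could be tested in all members and none passed in any comparison. After SLC activation with LPS 8 of the 11 had a value below 0, with a median of −1.07 where the median of all 2311 tested genes was −0.34. After LPS their median was 0.19, and that of all genes −0.12.

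Among cytokine and alarmin receptors, 8 of 17 could be tested and none passed. Il2ra stood at 518 and 556 CPM in the control libraries, 425 and 1417 after LPS, and 1089 and 954 after SLC activation with LPS without the myeloid-rich members. Il2rb, the shared IL-2 and IL-15 receptor chain, stood at 502 and 916 CPM in control, 1106 and 1819.8 after LPS, and 467 and 2616 after SLC activation with LPS. Both SLC libraries lay above the control pair for Il2ra (0.29, SE 0.57, adjusted p = 0.776), and the Il2rb ranges overlapped (0.72, SE 0.66, adjusted p = 0.555). Il17rb, the IL-25 receptor, was found in 53 members and Crlf2, the TSLP receptor, in 20, of which 11 were not myeloid-rich. Ifngr1, the interferon-gamma receptor, stood at 196 and 359.7 CPM in control, 284 and 1277 after LPS, and 156 and 338 after SLC activation with LPS, highest in LPS library 2. Tnfrsf1b, a TNF receptor, had a difference of 1.62 (SE 0.47) in all members after LPS (unadjusted p = 0.00559, adjusted p = 0.172), and it was too low to test without the myeloid-rich cells.

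Receptors for neural, hormonal and lipid signals bear on the nerve question of the study, and most were near the limit of detection. Nmur1, the neuromedin U receptor, and Ptgdr2, the prostaglandin D2 receptor CRTH2, had no UMI in any of 327 members, which allows up to 0.917% of members with one. Of 19 genes in this list 5 could be tested and none passed. Nr3c1, the glucocorticoid receptor, stood at 578 and 556 CPM in the control libraries, 425 and 822 after LPS, and 233 and 308 after SLC activation with LPS without the myeloid-rich members, and both SLC libraries lay below the other 4. The value against control was −1.58 (SE 0.56) (unadjusted p = 0.0145, adjusted p = 0.204), where all 1020 genes tested there had a median of −0.56. The SLC libraries held 12854 and 32497 UMIs in these cells, so their levels of Nr3c1 and of the next receptors rest on few UMIs. Ptger4, a prostaglandin E2 receptor, stood at 366 and 217 CPM in control, 113 and 245 after LPS, and 156 and 123 after SLC activation with LPS, and Ramp3, a subunit of adrenomedullin receptors, at 295 and 339 CPM in control, 482 and 665 after LPS, and 389 and 308 after SLC activation with LPS. Of 6 glucocorticoid-responsive genes tested in all members none passed in either treated group against control, and with cells thinned to 500 UMIs the 1 that could be tested, Dusp1, was called lower after LPS. The median of the 6 in all members was −1.18 after LPS and −0.96 after SLC activation with LPS, where that of all genes was −0.12 and −0.34.

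Transcription factors of the ILC2 program showed no call in all members among 14 of 20 that could be tested. Id2, which all innate lymphoid cells require, stood at 1173 and 651 CPM in the control libraries, 482 and 1627 after LPS, and 622 and 1169 after SLC activation with LPS without the myeloid-rich members. Bcl11b, a factor of lymphoid identity, stood at 273 and 244 CPM in control, 340.4 and 262 after LPS, and 389 and 185 after SLC activation with LPS, and the 3 groups overlapped. Ets1 stood at 884 and 570.0 CPM in control, 567 and 1925 after LPS, and 545 and 1108 after SLC activation with LPS. Klf6 was at 1506 and 2531 CPM in control, 1106 and 385 after LPS, and 1245 and 1262 after SLC activation with LPS, below the control pair in all treated libraries, at −1.77 (SE 0.50) after LPS (adjusted p = 0.274). Pparg, a lipid-sensing nuclear receptor of lung ILC2s, had 18 and 36 UMIs in control, 4 and 9 after LPS, and 0 and 0 after SLC activation with LPS in those cells. Residency genes were uneven as well, with none of 10 tested genes called. Cd69, a retention receptor, stood at 895 and 984 CPM in control, 624 and 437 after LPS, and 1712 and 400.0 after SLC activation with LPS, and Ccr2, a chemokine receptor, at 557 and 475 CPM in control, 340.4 and 455 after LPS, and 77.8 and 154 after SLC activation with LPS, lowest in the SLC pair (−2.54, SE 0.60, unadjusted p = 9.03e-04, adjusted p = 0.107). The Ccr2 levels of the SLC pair rest on few UMIs.

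Genes called across all members included members of the myeloid list, Clec4d and Clec4e after LPS and Clec4d, Ctss and Itgam after SLC activation with LPS. After LPS 13 genes passed of 2311 tested (0.563% called), all higher, and after SLC activation with LPS 7 passed (0.303% called), all higher. No gene passed between the treated groups (0% called), where 104 had an unadjusted p under 0.05 and DESeq2 called 3. Saa3, an acute-phase apolipoprotein, had 1 and 0 UMIs in control, 43 and 118 after LPS, and 17 and 58 after SLC activation with LPS, and the pooled LPS level was 303 times that of control (exact 95% interval 53.7 to 12050, counting error only), with adjusted p = 0.0154 after LPS and 0.0346 after SLC activation with LPS. Ly6i, a Ly6 family surface protein, had 0 and 1 UMIs in control, 54 and 65 after LPS, and 4 and 25 after SLC activation with LPS (adjusted p = 0.0154 and 0.039). Acod1, which makes itaconate in activated macrophages, changed by 4.46 (SE 0.72) after LPS (adjusted p = 0.035), and S100a8, a neutrophil and monocyte calcium-binding protein, by 4.46 (SE 0.77) (adjusted p = 0.0371). Itgam, the CD11b integrin, changed by 4.29 (SE 0.67) and Ctss, a lysosomal protease, by 3.07 (SE 0.49) after SLC activation with LPS (adjusted p = 0.039 for both). Clec4d, a C-type lectin, passed in both comparisons, as did Inhba, which had no UMI in control and was at least 25.1-fold higher after LPS and at least 53.5-fold higher after SLC activation with LPS, with 3 UMIs over the control group as the floor. AA467197 had no UMI in control either and was at least 81-fold higher after LPS. Fpr2, Slc7a2, Clec4e, Ccrl2 and Gadd45a were also called after LPS, and Wfdc17 after SLC activation with LPS.

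A share of these UMIs can be reached by free RNA, estimated from barcodes of few UMIs and scaled so that marker genes of other lung cells come from free RNA alone, those of the myeloid-rich members included, so the estimate may be high. In the group where each gene was highest, that share was 100% for Clec4d, 90.0% for S100a8, 88.7% for Slc7a2, 87.9% for Acod1, 80.3% for Fpr2, 77.8% for Wfdc17, 67.8% for Ly6i and 56.8% for Saa3. S100a8 and Saa3 are among the marker genes that set the scale, so their shares follow in part from it. The scale was 51.6 and 26.6% of member UMIs in control, 100% (its upper limit) and 45.1% after LPS, and 74 and 82.8% after SLC activation with LPS. The share was lower for Inhba (52.3%), Ctss (41.3%), Itgam (36%) and AA467197 (32.7%). By the same estimate it was 100% for Ccl3, 80.8% for Tnfrsf1b and 67.0% for Ccl5, which were described above without a call. The part of free RNA in their levels was not tested.

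No gene was called without the myeloid-rich members, in a fit that tested fewer genes. In the remaining 112, 106, 20, 28, 8 and 26 cells, no gene of 1020 tested passed in any of the 3 comparisons (0% called), where 102, 180 and 88 genes had an unadjusted p under 0.05. The 18 myeloid genes that defined the split were not tested there. With Il1rl1 also required, none of 589 genes passed. Saa3 UMIs were 1 and 0 in control, 15 and 1 after LPS, and 3 and 15 after SLC activation with LPS in those cells, so part of the signal stayed outside the myeloid-rich cells. The pooled Saa3 level there was 57.2 times that of control after LPS (exact 95% interval 8.89 to 2401) and 131 times after SLC activation with LPS (20.7 to 5467). Ly6i was 39.4 times (5.72 to 1694) and 65.6 times (9.09 to 2876) the control level, and AA467197, with 22 UMIs after LPS and 0 in control, was at least 26.2-fold higher. Its source in those cells was not tested. The number of calls also turned on single libraries. Without LPS library 1 it was 114 after LPS, without LPS library 2 it was 140, and without SLC library 1 or 2 it was 2 and 1. After SLC activation with LPS it was 143 and 208 without those LPS libraries, and 0 and 1 without SLC library 1 and 2.

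Some immediate early and feedback genes were called lower in treated members when every cell was thinned to the same depth, and none was called without the myeloid-rich members. Fosb and Jun belong to the AP-1 family that is induced within minutes of stimulation, and Nfkbia, Tnfaip3 and Zfp36 encode inhibitors that NF-kB or stress signals induce. Outside the myeloid-rich members Fosb stood at 2264 and 3589.9 CPM in the control libraries, 1787 and 402 after LPS, and 1634 and 923 after SLC activation with LPS. Zfp36 stood at 6914 and 6989.8 CPM in control, 2893 and 3132 after LPS, and 4590.0 and 1077 after SLC activation with LPS. Nfkbia stood at 8245 and 6820.1 CPM in control, 4595 and 4269.6 after LPS, and 5135 and 6001 after SLC activation with LPS. For all 3, each treated library lay below both control libraries. With every member thinned to 500 UMIs, the myeloid-rich ones included (20 of 102 treated and 7 of 225 control members), 18 of 301 tested genes passed after LPS (5.98% called, 0.997% higher and 4.98% lower) and 15 of those were lower, among them Zfp36 (−1.98, SE 0.40, adjusted p = 0.00701), Fosb (−2.05, SE 0.48), Jun (−2.15, SE 0.62), Klf6 (−2.14, SE 0.58), Dusp1 (−1.90, SE 0.52) and Nfkbia (−1.26, SE 0.38). After SLC activation with LPS 33 passed (11% called, 0.664% higher and 10.3% lower) and 31 were lower, among them Fos (−2.40, SE 0.54, adjusted p = 0.00843), Nr4a1 (−2.02, SE 0.44), Tnfaip3 (−1.74, SE 0.44) and Zfp36 (−1.90, SE 0.40). The median change of all 301 genes was −0.58 and −0.78, and these values are to be read against it. No gene passed between the treated groups (0% called). Of 16 immediate early and stress genes 11 were tested, of which 4 were called lower after LPS and 5 after SLC activation with LPS. All 11 values were below 0 in both, where the median of all 301 genes was below 0 as well. Of 2 tested inhibitory or feedback genes 1 was called lower in each comparison, Nfkbia after LPS and Tnfaip3 after SLC activation with LPS. Without the myeloid-rich members and with no thinning, 14 immediate early and stress genes were tested and none passed, with medians of −0.72 and −1.38. Of these 14, 4 had a value above 0 after LPS and 2 after SLC activation with LPS. In the fit over all members with no thinning, none of the 16 passed, and the median was −1.10 after LPS and −1.28 after SLC activation with LPS. There 3 of the 16 had a value above 0 in each comparison with control. Such genes also respond to tissue digestion, and mitochondrial transcripts such as mt-Nd4 (−1.30, SE 0.35, after LPS) were lower beside them. So was Gsn, an actin-binding protein abundant in stromal cells (−3.91, SE 0.96, after LPS and −2.64 (SE 0.86) after SLC activation with LPS), and, after SLC activation with LPS, the airway transcript Scgb1a1 (−4.00, SE 0.99). The part of digestion and of free RNA in the result was not tested.

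T cells of the same libraries passed through the same digestion, and the ILC2 response was set against theirs. A test of the ILC2 response to LPS minus the T cell response, with the library as a block, called 2 genes of 6537 (0.0306% called) in all members. Bhlhe40, a transcription factor that sustains cytokine production, stood over all members at 1634 and 1056 CPM in the control libraries, 528 and 974 after LPS, and 561 and 978 after SLC activation with LPS. In T cells it stood at 274 and 193 CPM in control, 443 and 443 after LPS, and 264 and 573 after SLC activation with LPS. It thus lay lower in ILC2s and higher in T cells after LPS, a difference of −1.93 (SE 0.35, adjusted p = 0.00211). Fth1, the ferritin heavy chain, differed by 1.17 (SE 0.19, adjusted p = 0.000678), but this turned with the myeloid-rich members. Without them it was −1.17 (SE 0.21, adjusted p = 3.04e-05). In that fit 25 of 6491 genes passed (0.385% called), 20 of them lower in ILC2s relative to T cells. They included Bhlhe40 (−1.89, SE 0.30, adjusted p = 3.02e-06), Klf6 (−1.72, SE 0.29), Dusp1 (−1.51, SE 0.30), Zfp36 (−1.24, SE 0.23), Nfkbiz (−1.20, SE 0.29), Nfkbia (−0.99, SE 0.20) and Jund (−0.86, SE 0.20). In that fit, which took libraries with at least 5 members, these feedback and early genes had lower values in ILC2s than in T cells. Myeloid-rich cells were left out on the ILC2 side only. Arg1 (−5.26, SE 1.06) and Il1b (−2.02, SE 0.47), genes that myeloid cells also make, were among the 20 lower. The part of this 1-sided step in the values of the early and feedback genes was not tested. Several of these values moved with single libraries, and not all of the genes kept their calls. Zfp36 was −0.57 without LPS library 1 and −1.96 without LPS library 2, Nfkbia −0.43 and −1.58, and Klf6 −2.44 and −1.12. Zfp36 in T cells was at 926 and 831 CPM in control, 1049 and 461 after LPS, and 902 and 435 after SLC activation with LPS. Among the 5 higher were Cd28, Trat1, Gzma and Klrb1b, T and natural killer cell genes, and Akap12 (3.62, SE 0.67). T cells were not screened for myeloid genes. Without control library 1 or 2 no gene passed (Bhlhe40 −1.68, adjusted p = 1, and −1.98, adjusted p = 0.0657). Without LPS library 1 or 2, 14 and 17 genes passed, Bhlhe40 among them both times. Without SLC library 1 or 2 the counts were 16 and 38, again with Bhlhe40. In all members the 2 calls became 7 without control library 1, 71 and 69 without LPS library 1 and 2, and 17 and 0 without SLC library 1 and 2.

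Interferon-induced genes had values above 0 in members after LPS, without a call. Gbp2, a GTPase that interferon-gamma induces, had 6 and 4 UMIs in control, 12 and 16 after LPS, and 0 and 21 after SLC activation with LPS without the myeloid-rich members, or 32.7 and 27.1 CPM in control, 340.4 and 280.0 after LPS, and 0 and 646 after SLC activation with LPS. Its change was 3.03 (SE 0.85) after LPS and 3.19 (SE 0.89) after SLC activation with LPS, with unadjusted p of 0.00314 and 0.00305 and adjusted p of 0.274 and 0.141. Ly6a, the surface protein Sca-1, stood at 393 and 312 CPM in control, 1219.7 and 909.9 after LPS, and 1245 and 2277 after SLC activation with LPS, and all treated libraries lay above both control libraries (1.31, SE 0.50, and 1.79 (SE 0.51), adjusted p = 0.356 and 0.141). Among the other genes of this list, Rsad2, an antiviral enzyme, had 2.94 (SE 0.61) in all members after LPS (adjusted p = 0.0701), and Ifi47 had 3.25 (SE 0.72) (adjusted p = 0.0811). The free RNA share by the estimate above was 86.8% for Irf1, 79.6% for Gbp7, 69% for Rsad2, 67.2% for Gbp2, 56.8% for Ifi47 and 39% for Ly6a, and its part in the result was not tested. Of 18 listed genes 8 could be tested in all members. After LPS all 8 had a value above 0, 7 with an unadjusted p under 0.05, and none passed, with a median of 2.51 where that of all genes was −0.12. Without the myeloid-rich members 5 could be tested, all 5 were above 0 after LPS, and the median was 1.31. After SLC activation with LPS the medians were 1.03 in all members and 1.79 without the myeloid-rich ones.

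Inhibitory receptors were sparse. Klrg1 was found in 50 members and Pdcd1, which encodes PD-1, in 58. Pdcd1 stood at 98.2 and 95 CPM in the control libraries, 170.2 and 507 after LPS, and 156 and 277 after SLC activation with LPS without the myeloid-rich members (1.65, SE 0.57, after LPS, adjusted p = 0.33), again highest in LPS library 2. Cish, a suppressor of IL-2 family cytokine signals, stood at 256 and 224 CPM in control, 85.1 and 87.5 after LPS, and 233 and 123 after SLC activation with LPS (−1.70, SE 0.57, after LPS, adjusted p = 0.33). Of 15 genes in this list 11 were tested in all members and none passed. Proliferation could not be followed in ILC2s. Mki67, a marker of cycling cells, had a UMI in 12 members, of which 7 were not myeloid-rich, and none of 6 tested cell cycle genes passed. The median of the 6 in all members was 1.71 after LPS and 1.53 after SLC activation with LPS. Without the myeloid-rich members 2 could be tested, with medians of −0.60 and −0.58.

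**Figure D5:**
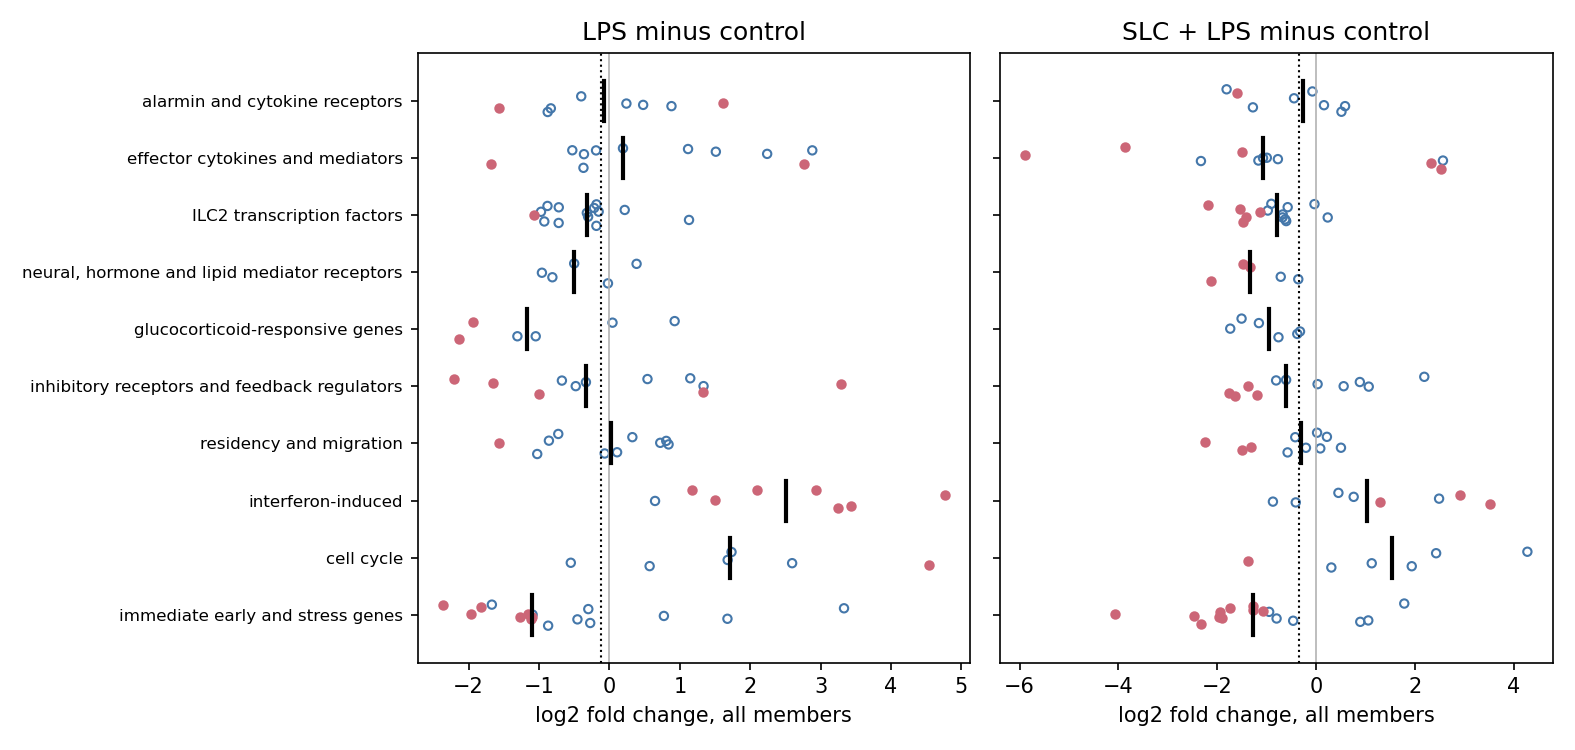
Log2 fold change of each tested gene of 10 lists in all members, LPS minus control (left) and SLC activation with LPS minus control (right). Filled points have an unadjusted p under 0.05, none passed after adjustment, thick bars are list medians and the dotted line is the median of all 2311 tested genes. After LPS, interferon-induced (median 2.51) and cell cycle genes (1.71) lie to the right. Immediate early (−1.10) and glucocorticoid-responsive genes (−1.18) lie to the left.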

How the data were processed

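Gene by cell UMI counts of 6 lung libraries were used as deposited by the authors. The submitters' processing notes name GRCm39 (mm39), and the aligner and counter are not given in the sources used here. Member UMIs were summed per library and tested with edgeR 4.0.16 in R 4.3.3 (TMM, filterByExpr, robust quasi-likelihood F-test, Benjamini-Hochberg, threshold 0.05), with all 6 libraries in 1 fit and no block. Libraries with under 10 members were to be left out, and none was; fits without myeloid-rich members took libraries with at least 5. Shares were tested on cell numbers per class, with classes called from marker genes. Levels are UMIs per 1000000, and thinned cells were drawn to 500 UMIs. The gating genes were not tested. Cells stand for no replicate. The main depth limit is 11 to 118 members per library. On simulated counts of 2509 genes for LPS against control, 46% of 4-fold and 76% of 8-fold changes were recovered, with 3 false calls.

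The rule named up to 6 genes of highest mean level per list and up to 8 calls in each direction; not all of them are printed. Genes named beyond this, Il5-positive cells, the 18 myeloid genes and the fits without myeloid-rich or alpha-beta T cell members or with thinned cells were chosen after their values were seen. Members and lists were chosen with earlier results of these data known. Doublets were scored with Scrublet and kept, and an alternative left out the top 6%. Other alternatives were DESeq2 1.42.0, filters, gates and left-out libraries. Some items are not reported here.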

Additional observations from a re-analysis of the deposited data

Results flagged for a closer look

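The response to LPS of 2 genes differed between ILC2s and T cells by a test of that difference (edgeR quasi-likelihood test with the library as a block). Fth1 had a difference of 1.174 on the log2 scale, ILC2s minus T cells, and Bhlhe40 of −1.93. Without the myeloid-rich members Fth1 was −1.17 and Bhlhe40 −1.89.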

How the results depend on the processing

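Calls across genes rested on few cells and moved with the processing. The counts of called genes were 13 after LPS, 7 after SLC activation with LPS, and 0 between the treated groups. DESeq2 called 50, 59 and 3, and a fit with no low-count filter 136, 131 and 18. With no scaling beyond library totals, 20 and 36 were called against control. Leaving out genes prone to free RNA gave 2 and 18. Requiring 3 of the 5 gating genes gave 33 and 4 (first SLC library left out), and a gate free of T cell receptor genes gave 121, 110 and 62 (first LPS and first SLC library left out). Leaving out the top doublet scores gave 6 and 0, members under 10% mitochondrial UMIs gave 0 after SLC activation with LPS, members with no alpha-beta T cell marker 45, and thinned cells 33. Without the myeloid-rich members, and with Il1rl1 also required, 0 and 0 were called. Leaving out 1 library at a time gave 1 to 140 after LPS, 0 to 208 after SLC activation with LPS, and 0 to 22 between the treated groups. The cause was not tested. The comparison with T cells called 2 genes, 8 with no low-count filter, 25 without the myeloid-rich members, and 0 to 71 with a library left out. Shares of kept cells after LPS and after SLC activation with LPS were −1.89 and −2.47, and −0.56 and −0.81 with TMM over classes. The LPS value was −2.02 with the gate on thinned cells and −2.02 under 10% mitochondrial UMIs, neither called (adjusted p = 0.0546 and 0.0516). Between the treated groups the share was 0.088 with the gate free of T cell receptor genes, against −0.58, and neither was called. Among lymphocytes, SLC activation with LPS became called at −0.80 without the myeloid-rich members, −1.02 with Il1rl1 also required and −0.92 with no alpha-beta T cell marker. With 1 library left out, the share of kept cells ran from −2.23 to −1.61 after LPS and from −3.43 to −1.90 after SLC activation with LPS, and that of lymphocytes after LPS from −1.15 to −0.88. Csf2 after LPS ran from −2.10 to 1.09, and Lyz2 between the treated groups from −1.39 to 3.602. Saa3 between the treated groups was 9.21 with the gate free of T cell receptor genes.

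Replicate numbers do not mark a shared batch in the labels, and with 2 numbers per group the same-numbered libraries share only a number (correlations of deviations 0.217, 0.124 and 0.114). With the replicate number as a block, 34 and 45 genes were called against control and 0 between the treated groups, and the LPS shares were −1.97 of kept cells (adjusted p = 0.0702) and −1.03 of lymphocytes (adjusted p = 0.078).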
